A study of Mus musculus with 12 samples.

Results

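The genes that control hepcidin, the liver hormone of iron balance, were followed in sorted hepatocytes of p16-Tom mice. They are 10 genes out of 54839 features in the deposited table, and they were chosen by name for their roles in the pathway: both hepcidin genes (Hamp and Hamp2), the ligand Bmp6, the BMP-SMAD targets Id1, Smad6, Smad7 and Atoh8, the iron sensors Tfr2 and Hfe, and the transferrin receptor Tfrc. All 10 passed the filter on low counts. RNA-seq was done on 12 libraries. There were 3 of each fraction (Tom+ or Tom- hepatocytes) and treatment, the male mice having received corn oil or CCl4, a solvent that injures the hepatocytes around the central vein. All groups were of C57BL/6 background, carried 1 copy of p16-CreERT2 and of the R26-CAG-LSL-tdTomato reporter, and received tamoxifen, so that red cells are those with p16Ink4a expression at the time of tamoxifen. The Cre is driven by p16Ink4a in any cell type, and the sort was for red and non-red live cells of a hepatocyte preparation.

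Hepcidin is secreted by hepatocytes and degrades the iron exporter ferroportin, so that less iron reaches the blood when hepcidin is high. Sinusoidal endothelial cells make BMP6 and BMP2, which act on BMP receptors and the co-receptor hemojuvelin of hepatocytes, and phosphorylated SMADs then switch on Hamp together with the feedback genes Smad6, Smad7, Id1 and Atoh8. HFE and TFR2 sense iron-loaded transferrin on the hepatocyte surface, and IL-6 raises Hamp through STAT3.

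The DNA just upstream of both hepcidin genes is shown because the BMP and IL-6 inputs act there and because the copies differ in it. Of the 10 genes, 8 had at least 1 window in the promoter table of RefSeq (build GRCm38.p6), and 11 windows were found in all. The runs below go from 150 to 11 bases before the RefSeq start, 5′ to 3′, on the minus strand, at chr7:30944040-30944179 for Hamp and at chr7:30924192-30924331 for Hamp2. Capitals mark GGCGCC, the core of the BMP response element, and TTCNNNGAA, the STAT-type motif, and in Hamp2 the bases aligned to them.
Hamp: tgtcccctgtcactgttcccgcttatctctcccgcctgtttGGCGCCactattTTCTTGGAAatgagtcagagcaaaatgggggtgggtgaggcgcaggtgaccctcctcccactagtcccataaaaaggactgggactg
Hamp2: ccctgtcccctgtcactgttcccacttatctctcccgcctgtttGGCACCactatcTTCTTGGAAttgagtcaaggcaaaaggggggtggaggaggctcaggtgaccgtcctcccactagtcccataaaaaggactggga

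The Hamp run lies upstream of the gene, and the Hamp2 run lies upstream of the RefSeq start but inside the intron of a longer Hamp2 transcript. Over the 250 bases before the start the 2 genes were identical at 227 of 253 aligned positions. GGCGCC began 109 bases before the start of Hamp, and the aligned hexamer of Hamp2, which began 106 bases before its start, carried G4A, counted from 1 at the 5′ end of the hexamer. The STAT-type motif was the same in both genes and began 97 bases before the start of Hamp and 94 before that of Hamp2. Both motifs read the same on either strand and did not overlap each other. GGCGCC was held by 9.59% and TTCNNNGAA by 7.01% of 32817 windows of the same length. Among the other genes with a window, the letters GGCGCC also stood 89 bases before 1 of the 2 starts of Tfrc, and the remaining windows held neither motif. The Hamp and Hamp2 transcripts are also alike, since 60 of the 361 stretches of 50 bases of the Hamp transcript also occur in the main Hamp2 transcript. The division of reads between both genes is therefore uncertain.

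Total counts ranged from 37568584 to 75331424 per library, where 3 counts correspond to 0.0369 to 0.0829 CPM (counts scaled to a common library total). The 6 hepatocyte markers (Alb and others) summed to between 89561 and 134282 CPM in every library. Markers of other liver cells were present at low levels, with summed levels of 128 to 343 CPM for 8 sinusoidal endothelial genes, 7.62 to 98.4 CPM for 8 stellate cell genes and 15.4 to 136 CPM for 8 Kupffer cell and macrophage genes. The tdTomato reporter went against 2 labels: the library labelled Tom- oil 1 had 1794 CPM and the library labelled Tom+ oil 2 had 135 CPM, whereas the other Tom+ libraries had 1225 to 1546 CPM and the other Tom- libraries 120 to 263 CPM. Both libraries numbered 1 were thus high and both numbered 2 low in oil. The labels were kept, and the edgeR values of single genes that use oil libraries are given with and without these 2. In bulk RNA, fewer cells of a type and less RNA per cell cannot be told apart.

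Levels of different genes were compared as TPM (transcript abundance scaled to the library), which corrects for gene length. Hamp was the most abundant of the 10 with a mean of 1057 TPM over the 12 libraries (range 275 to 1799), followed by Tfr2 with 319.6 TPM (277 to 386). Hamp2 averaged 38.1 TPM (6.95 to 108.6), Hfe 31.2 TPM (24.6 to 36.5), Tfrc 20.1 TPM (12.8 to 25.8) and Atoh8 14.5 TPM (10.1 to 19.5), each with the range in brackets. Id1 with 7.99 TPM, Smad7 with 3.72 TPM, Smad6 with 2.87 TPM and Bmp6 with 1.60 TPM were the least abundant. Neighbours in this order overlapped in their ranges over the libraries, except Tfr2 and Hamp2. The counts behind the CPM values were lowest for Smad6 (66 to 474 per library), Bmp6 (78 to 204) and Hamp2 (78 to 1028).

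The question of the CCl4 comparison is how the genes differed between injured and control livers in each fraction. A gene was called at an adjusted p-value under 0.05 in edgeR's quasi-likelihood test over all 17121 genes tested and a log2 fold change beyond 0.75. Hamp2, Bmp6 and Smad7 rose in Tom- hepatocytes after CCl4, and Hamp, Hamp2 and Smad7 rose in Tom+ hepatocytes. None of the 10 fell. The 3 of 10 in Tom- stood beside 6.33% of all genes called higher, and the 3 of 10 in Tom+ beside 2.9%. Without both oil libraries whose reporter goes against the label, 1 of 10, Smad7, remained called in each fraction, beside 4.32% of all genes in Tom- and 2.09% in Tom+. The median log2 fold change of the 10 was 0.59 in Tom- and 0.47 in Tom+, beside 0.00 over all genes tested in either fraction. The groups did not overlap for 3 of 10 genes in Tom- (36% of all genes) and for 5 of 10 in Tom+ (29.3% of all genes).

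**Figure D1:**
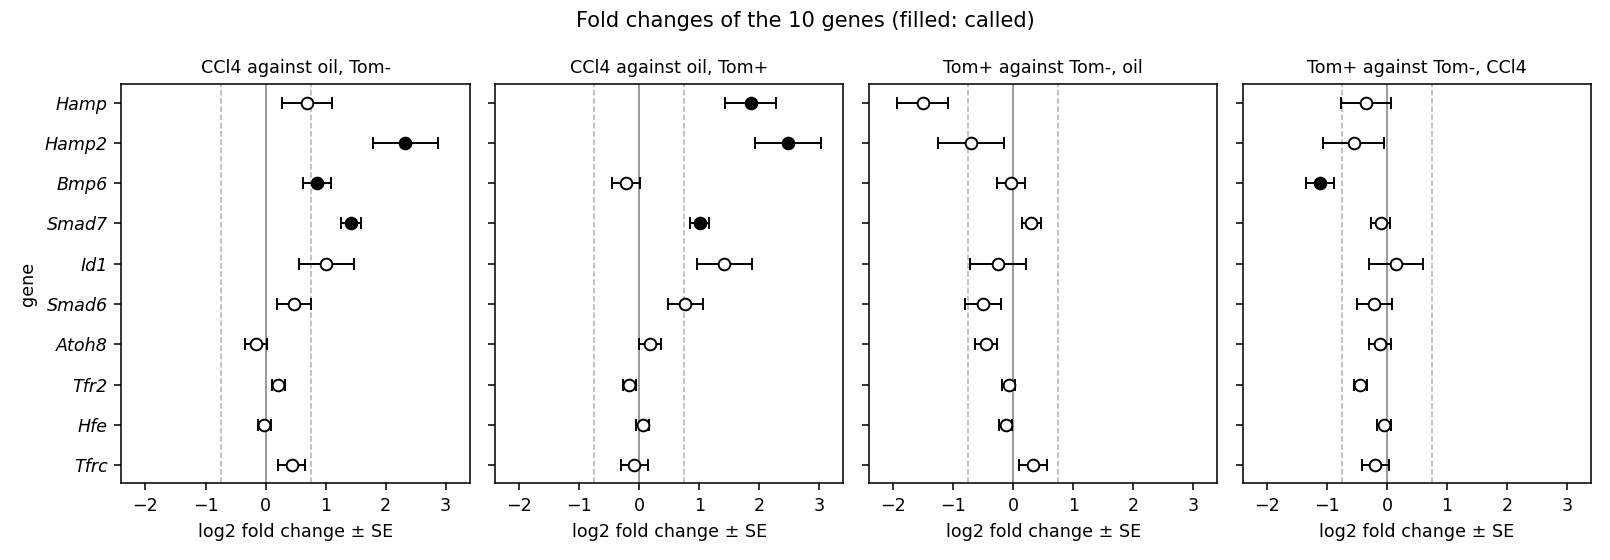
Log2 fold change with its standard error (horizontal axis) of each of the 10 genes (vertical axis) in 4 comparisons, with filled circles for called genes and dashed lines at 0.75 and -0.75. Smad7 was called in both CCl4 comparisons, with 1.42 in Tom- and 1.01 in Tom+, and Bmp6 was the 1 gene called between Tom+ and Tom-, in CCl4, with -1.12.

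Hamp (chr7:30942368-30944032, minus strand, mm10) encodes the hepcidin peptide of the mouse liver. Its level was 255, 204 and 61.3 CPM in Tom- oil libraries 1, 2 and 3, and 67.7, 64.9 and 49.7 CPM in Tom+ oil. After CCl4 it was 328, 264 and 249 CPM in Tom- and 264, 198 and 197 CPM in Tom+. The 6 CCl4 libraries were all high, while in oil only Tom- libraries 1 and 2 were, so that the treatments overlapped in Tom- (by the library labelled Tom- oil 1) and did not overlap in Tom+. Hamp rose after CCl4 in Tom+ (log2 fold change 1.85, SE 0.43, adjusted p = 0.0277), which is 3.62-fold. In Tom- the value was 0.70 (SE 0.42, adjusted p = 0.290), and 1.09 (0.191) without both oil libraries of doubtful label, neither of which was called. The difference between these 2 changes was not called either (interaction 1.16, SE 0.59, adjusted p = 0.334). Without Tom- oil 3 the interaction was 1.56 with an adjusted p of 0.00946. That library had the lowest Hamp of its group, so this value follows from which library was left out and is no support. Without both oil libraries of doubtful label the interaction was 0.82 (adjusted p = 0.653).

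The Hamp call in Tom+ was lost without any 1 of the 6 Tom+ libraries, with log2 fold changes of 1.69 to 1.94 and adjusted p-values of 0.0584 to 0.0840, and without both oil libraries of doubtful label it was 1.91 with an adjusted p of 0.0677. Summed over both fractions of the same number, Hamp was 1.18 higher after CCl4 (log2, SE 0.35, adjusted p = 0.103). Without oil number 3 it was 0.86 with an adjusted p of 0.00995. Number 3 had the lowest Hamp of both oil fractions, so that p-value depends on which number was left out and is no support. The summed value was 1.17 (adjusted p = 0.263) without both oil libraries of doubtful label. Lists of zoned hepatocyte genes moved with Hamp in Tom+: the summed level of 8 zone 1 (periportal) genes was 5451 to 6684 CPM in oil and 2633 to 3365 CPM after CCl4, and that of 8 zone 3 (pericentral) genes was 738 to 2447 CPM in oil and 3066 to 4124 CPM after CCl4. Their part in the result was not tested. Cyp8b1, the sterol 12-alpha-hydroxylase of bile acid synthesis and like Hamp a gene of the middle zone, fell after CCl4 in both fractions. Its log2 fold change was -2.15 (adjusted p = 0.000845) in Tom- and -2.69 (0.000248) in Tom+. Without the oil libraries of doubtful label it was -2.32 and -2.49, both still called. The list held 4 middle zone genes, with both hepcidin genes among them, and those called higher were only the hepcidin genes themselves. The remaining gene, Igfbp2, was not called for CCl4 in either fraction. It was at 83.6 to 134.6 CPM in oil and 60.5 to 144.4 CPM after CCl4. Without the oil libraries of doubtful label no middle zone gene was called higher in either fraction. The part of the middle zone in the Hamp result was not tested.

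Hamp2 (chr7:30922372-30924681, minus strand) is the second hepcidin gene of the mouse. It stood at 3.797, 5.76 and 1.68 CPM in Tom- oil, at 2.54, 2.40 and 1.91 CPM in Tom+ oil, at 7.41, 28.4 and 20.8 CPM in Tom- CCl4 and at 11.51, 17.9 and 9.23 CPM in Tom+ CCl4. All 6 CCl4 libraries were above all 6 oil libraries. Hamp2 rose after CCl4 by 2.33 in Tom- (SE 0.54, adjusted p = 0.0189) and by 2.48 in Tom+ (SE 0.55, adjusted p = 0.0224) on the log2 scale. With both fractions summed the value was 2.41 (SE 0.40, adjusted p = 0.0224). The rise kept its direction when libraries were left out, but its size varied and the calls did not hold. It was 1.91 in Tom- without Tom- CCl4 2, and 2.175 in Tom+ without Tom+ CCl4 2. The values were, without both oil libraries of doubtful label, 2.34 (adjusted p = 0.0865), 2.52 (0.103) and 2.26 (0.0703). The Tom- call was also lost without Tom- oil 1, Tom- CCl4 2 or Tom- CCl4 3 (adjusted p = 0.0547 to 0.0656), the Tom+ call without any Tom+ oil library or Tom+ CCl4 2 (0.0624 to 0.0804), and the summed call without oil number 1 or CCl4 number 3 (0.0909 and 0.0846).

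Because reads can be shared, both hepcidin genes were also summed, and Hamp made up 90.3% to 98.5% of the sum. The sum was 177 ± 102 CPM (SD, n = 3) in Tom- oil, 63.0 ± 10.04 CPM in Tom+ oil, 299 ± 33.2 CPM in Tom- CCl4 and 233 ± 37.9 CPM in Tom+ CCl4. The 3 libraries of each CCl4 group were above the 3 oil libraries of the same fraction, with an exact two-sided permutation p of 0.1 in each fraction, which is the smallest p that 3 against 3 can give. With the sum in place of both genes in the fit, the log2 fold change was 1.88 in Tom+ (adjusted p = 0.0245) and 0.76 in Tom- (adjusted p = 0.242).

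**Figure D2:**
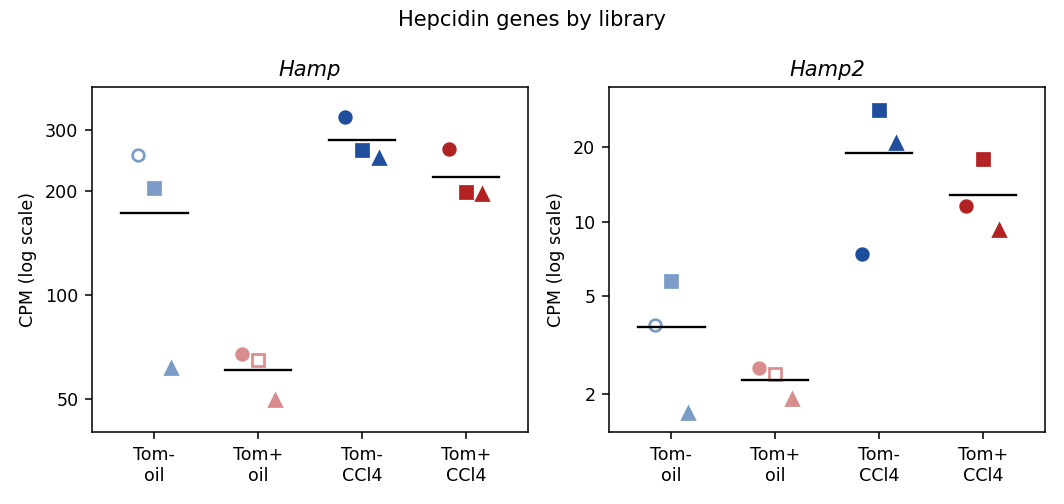
Level of Hamp and Hamp2 in CPM (vertical axis, log scale) in each of the 12 libraries by group, with circles for number 1, squares for number 2 and triangles for number 3, open symbols for the 2 oil libraries whose reporter goes against the label, and lines at group means. Hamp2 was between 7.41 and 28.4 CPM after CCl4 and between 1.68 and 5.76 CPM in oil, while Hamp of Tom- oil ranged from 61.3 to 255 CPM.

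The BMP-SMAD targets were next compared. Smad7 (chr18:75367529-75395935, plus strand) encodes an inhibitory SMAD that blocks the BMP receptors in a feedback loop. It stood at 4.03, 3.604 and 3.90 CPM in Tom- oil, at 4.51, 5.06 and 4.68 CPM in Tom+ oil, at 9.23, 10.1 and 11.6 CPM in Tom- CCl4 and at 9.92, 7.40 and 11.3 CPM in Tom+ CCl4. Every CCl4 library was above every oil library. Smad7 rose 2.68-fold in Tom- (log2 fold change 1.42, SE 0.16, adjusted p = 0.000179) and 2.01-fold in Tom+ (1.01, SE 0.16, adjusted p = 0.00175). Markers of other cells moved with it: the 8 stellate cell markers summed to 7.62 to 24.4 CPM in oil and 49.99 to 98.4 CPM after CCl4, with 7 of 8 higher in Tom- and 5 of 8 in Tom+, and the endothelial markers rose in Tom- (8 of 8) and not in Tom+ (0 of 8). Their part in the Smad7 result was not tested. With both fractions summed it rose by 1.19 on the log2 scale (SE 0.13, adjusted p = 0.00215), and it was 1 of 2 genes called there, with Hamp2, beside 3.34% of all genes called higher. Smad7 was called in each of the 3 CCl4 comparisons under every alternative run, with adjusted p-values of at most 0.00240 in Tom-, 0.0131 in Tom+ and 0.0161 in the sum. Without both oil libraries of doubtful label the values were 1.46, 1.06 and 1.26 (adjusted p = 0.00240, 0.00942 and 0.00812), and in the sum it was then the 1 gene of the 10 called, beside 1.91% of all genes. Over all 12 libraries, the CCl4 and oil libraries did not overlap for 2 of 10 genes, Smad7 and Hamp2, beside 7.65% of all genes.

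Id1 (chr2:152736251-152737410, plus strand), an inhibitor of DNA binding and a direct BMP target, was at 3.48, 1.80 and 2.49 CPM in Tom- oil, at 2.04, 1.60 and 2.86 CPM in Tom+ oil, at 3.08, 3.12 and 9.34 CPM in Tom- CCl4 and at 3.95, 4.80 and 8.58 CPM in Tom+ CCl4. The CCl4 libraries numbered 3 were the highest in both fractions, and the treatments overlapped in Tom- and not in Tom+. The log2 fold change was 1.01 in Tom- (SE 0.46, adjusted p = 0.159) and 1.42 in Tom+ (SE 0.46, adjusted p = 0.0823), neither called. The Tom- value rested on Tom- CCl4 3 and was 0.27 (adjusted p = 0.673) without it. The Tom+ value was called in DESeq2 (1.42, adjusted p = 0.01003) and in edgeR on the 6 Tom+ libraries alone (1.42, adjusted p = 0.0346). It was also called (1.42, adjusted p = 0.0152) without Tom- CCl4 3, a library that enters this contrast only through the estimate of the spread. The values were 1.28 (adjusted p = 0.180) in Tom- and 1.25 (0.241) in Tom+ without both oil libraries of doubtful label. Over 20 alternatives in edgeR or DESeq2 the Tom+ value ranged from 1.02 to 1.66, with adjusted p-values of 0.01003 to 0.298. It was called in 4 of these 20.

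Smad6 (chr9:63953076-64022059, minus strand), the other inhibitory SMAD, was at 3.402, 4.61 and 2.82 CPM in Tom- oil, at 3.44, 2.54 and 1.62 CPM in Tom+ oil, at 5.81, 5.34 and 3.93 CPM in Tom- CCl4 and at 5.83, 3.54 and 3.57 CPM in Tom+ CCl4. The Tom+ CCl4 libraries were just above the Tom+ oil libraries, and in Tom- the treatments overlapped. Its log2 fold change was 0.47 in Tom- (adjusted p = 0.287) and 0.76 in Tom+ (adjusted p = 0.123), and without both oil libraries of doubtful label 0.44 (0.488) and 0.77 (0.278). Atoh8 (chr6:72206177-72235577, minus strand), a transcription factor that follows BMP signalling and iron in the liver, ranged from 13.1 to 21.6 CPM in Tom- oil, from 11.0 to 14.7 in Tom+ oil, from 12.9 to 18.6 in Tom- CCl4 and from 13.0 to 16.8 in Tom+ CCl4. All groups overlapped. The log2 fold change of Atoh8 was -0.16 in Tom- (SE 0.19, adjusted p = 0.589) and 0.17 in Tom+ (SE 0.19, adjusted p = 0.627), and without the oil libraries of doubtful label 0.00 and 0.07. Of the 4 targets, Smad7 was the 1 gene called in either fraction, and Atoh8 had the values nearest to 0.

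**Figure D3:**
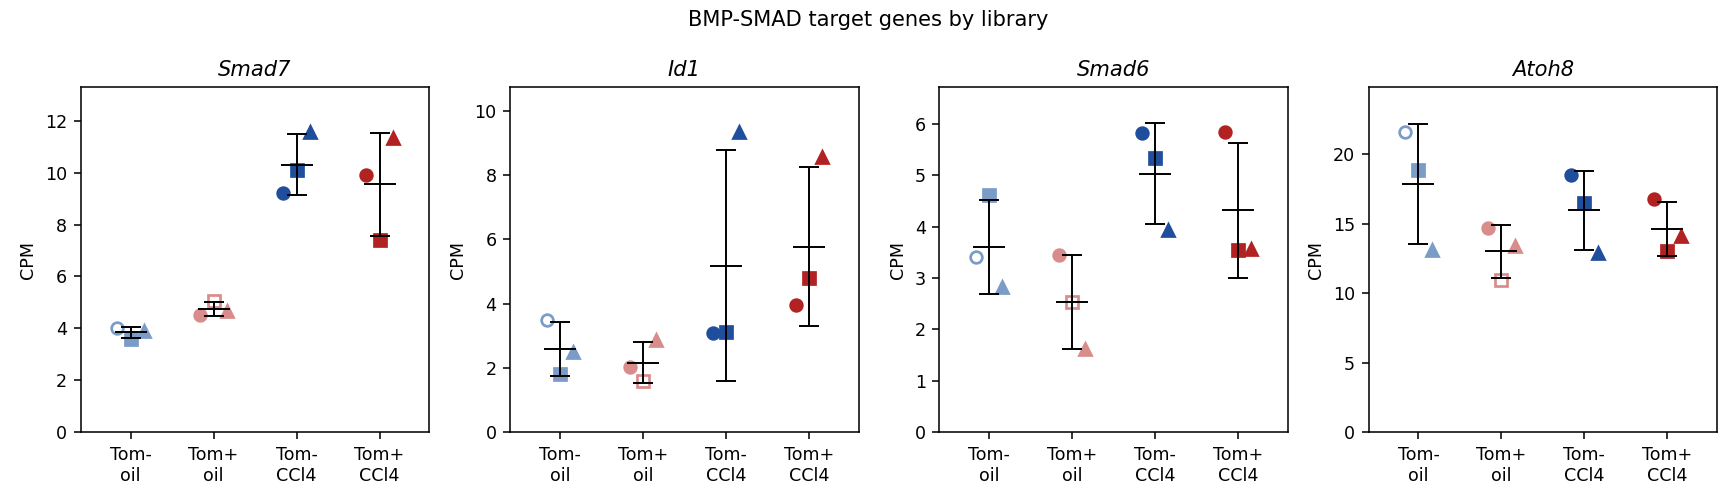
Level in CPM (vertical axes from 0) of 4 BMP-SMAD target genes in each library by group, with group means and SD (n = 3), circles, squares and triangles for numbers 1, 2 and 3, and open symbols for the 2 oil libraries whose reporter goes against the label. Smad7 was at 3.604 to 5.06 CPM in oil and 7.40 to 11.6 CPM after CCl4, whereas the groups of Atoh8 overlapped.

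Bmp6 (chr13:38345107-38500302, plus strand), the ligand through which liver iron raises hepcidin, was compared between fractions and treatments. It was at 2.58, 1.53 and 2.86 CPM in Tom- oil, at 2.01, 2.14 and 2.64 CPM in Tom+ oil, at 3.87, 4.42 and 4.31 CPM in Tom- CCl4 and at 2.08, 1.70 and 2.004 CPM in Tom+ CCl4. The 3 Tom- CCl4 libraries were above the other 9. In CCl4 mice Bmp6 was lower in Tom+ than in Tom- (log2 fold change -1.12, SE 0.23, adjusted p = 0.0164, lower in 3 of 3 pairs), and it was the 1 gene of the 10 called there, beside 1.74% of all genes called lower. The call was lost without Tom- CCl4 2 (-1.08, adjusted p = 0.0763) or Tom+ CCl4 2 (-1.04, adjusted p = 0.0815). Against oil, Bmp6 rose after CCl4 in Tom- (0.86, SE 0.23, adjusted p = 0.0232). That call was lost without both oil libraries of doubtful label (0.94, adjusted p = 0.0591) and without Tom- oil 2 (0.62, 0.0764), Tom- CCl4 2 (0.82, 0.0731) or Tom- CCl4 3 (0.84, 0.0665). In Tom+ the CCl4 value was -0.22 (SE 0.23, adjusted p = 0.609), or -0.25 (0.677) without both oil libraries of doubtful label.

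Whether the Tom+ to Tom- difference of Bmp6 itself differed between CCl4 and oil was tested as an interaction, where none of the 10 genes was called, beside 1.17% of all genes. The Bmp6 interaction was -1.08 (SE 0.33, adjusted p = 0.105), and -1.19 (0.194) without both oil libraries of doubtful label, not called in either. With the pair of same-numbered libraries as a block it was -1.11 and called (adjusted p = 0.0267), beside 5.48% of all genes in that fit. In oil, Bmp6 of Tom+ and Tom- differed by -0.04 (SE 0.23, adjusted p = 0.982), and by 0.06 (0.998) without both oil libraries of doubtful label.

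The sinusoidal endothelial markers moved with Bmp6. Their summed level was 128 to 191 CPM in Tom- oil, 144 to 237 in Tom+ oil, 323 to 343 in Tom- CCl4 and 161 to 225 in Tom+ CCl4. Of the 8 markers, all 8 rose after CCl4 in Tom- (7 without both oil libraries of doubtful label), 0 changed in Tom+, and 6 were lower in Tom+ than in Tom- of CCl4 mice, among them Pecam1 (-0.997), Clec4g (-0.89), Ptprb (-0.87) and Cdh5 (-0.83), which had adjusted p-values of 0.0203 to 0.0343. The part of the endothelial markers in the Bmp6 result was not tested. Bmp2, the other endothelial ligand of this pathway, was highest in the same group, with 16.8 to 23.6 CPM in Tom- CCl4 against 6.37 to 14.7 CPM in the other groups, but its Tom+ to Tom- value in CCl4 (-0.74, SE 0.25, adjusted p = 0.106) was not called.

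**Figure D4:**
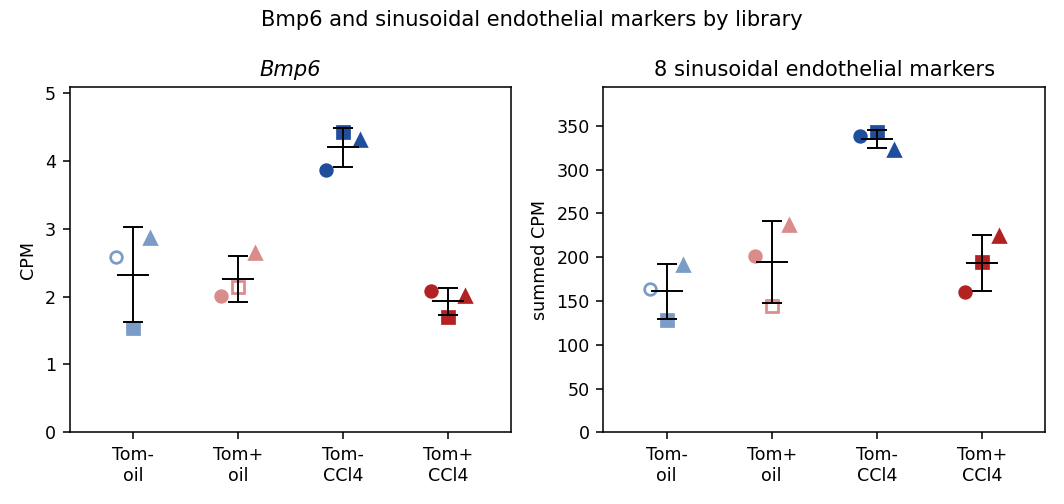
Level of Bmp6 in CPM and summed level of 8 sinusoidal endothelial markers in CPM (vertical axes from 0) in each library by group, with group means and SD (n = 3), circles, squares and triangles for numbers 1, 2 and 3, and open symbols for the 2 oil libraries whose reporter goes against the label. The Tom- CCl4 libraries were the highest in both panels, with 3.87 to 4.42 CPM of Bmp6 and 323 to 343 CPM of the markers.

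The iron sensors and the transferrin receptor varied less. Tfr2 (chr5:137569840-137587481, plus strand), which binds iron-loaded transferrin on hepatocytes, was at 547, 625 and 612 CPM in Tom- oil, at 495, 623 and 582 CPM in Tom+ oil, at 745, 710 and 607 CPM in Tom- CCl4 and at 511, 486 and 514 CPM in Tom+ CCl4. In CCl4 mice all 3 Tom+ libraries were below all 3 Tom- libraries, whereas in oil the fractions overlapped. The Tom+ to Tom- difference in CCl4 was -0.45 on the log2 scale (SE 0.11, adjusted p = 0.0311), past the p threshold and short of the fold threshold. Over 19 alternatives in edgeR or DESeq2 this difference ranged from -0.53 to -0.38, with adjusted p-values of 0.00144 to 0.126. In oil it was -0.07 (SE 0.11, adjusted p = 0.924), or -0.21 (0.887) without both libraries of doubtful label, and the interaction was -0.38 (SE 0.15, adjusted p = 0.209), or -0.25 (0.570) without them. With the pair as a block the interaction of Tfr2 was -0.37 with an adjusted p of 0.0357, again short of the fold threshold. For CCl4 against oil the value of Tfr2 was 0.21 in Tom- (adjusted p = 0.205) and -0.17 in Tom+ (0.370), and without both oil libraries of doubtful label 0.16 (0.432) and -0.09 (0.740).

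Hfe (chr13:23702034-23710854, minus strand), the hemochromatosis protein that partners with TFR2, ranged from 46.1 to 50.5 CPM in Tom- oil, from 39.5 to 51.3 in Tom+ oil, from 41.6 to 52.2 in Tom- CCl4 and from 43.3 to 49.1 in Tom+ CCl4. All groups overlapped, and the log2 fold changes lay between -0.13 and 0.06 in the 4 comparisons with an SE of 0.11, and those that use oil between -0.16 and 0.04 without both libraries of doubtful label. Tfrc (chr16:32608920-32632794, plus strand), whose mRNA is stabilized when a cell is short of iron, was at 48.9, 45.6 and 37.0 CPM in Tom- oil, at 61.5, 68.3 and 34.99 CPM in Tom+ oil, at 57.6, 71.5 and 48.8 CPM in Tom- CCl4 and at 46.8, 60.7 and 48.0 CPM in Tom+ CCl4. The lowest Tfrc values of both oil fractions were those of number 3, and all groups overlapped. Its largest log2 fold change was 0.44, for CCl4 against oil in Tom- (SE 0.23, adjusted p = 0.217), and it was 0.53 (0.225) without both oil libraries of doubtful label.

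**Figure D5:**
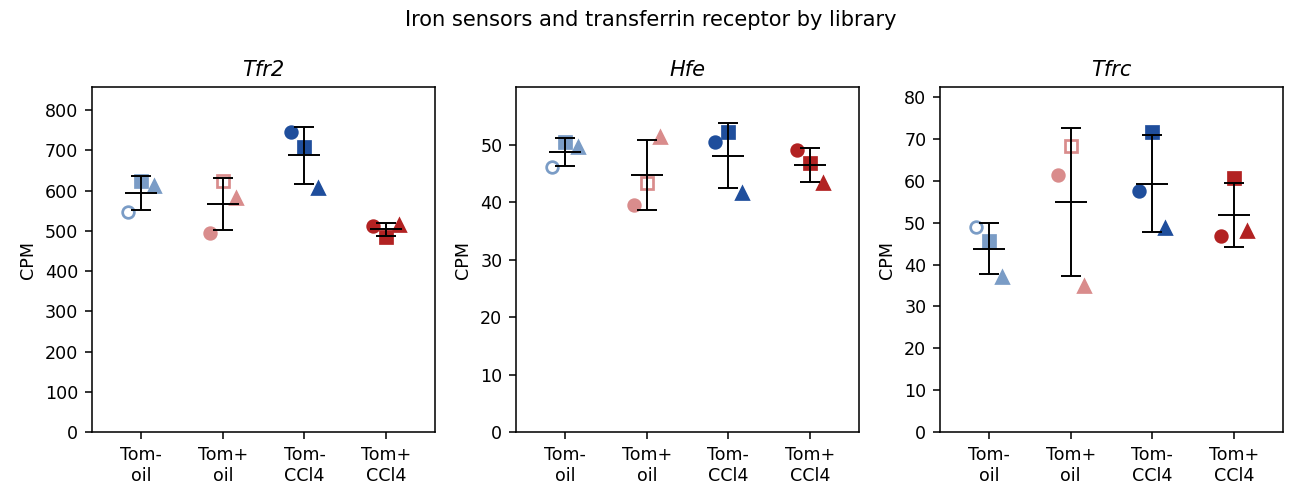
Level in CPM (vertical axes from 0) of Tfr2, Hfe and Tfrc in each library by group, with group means and SD (n = 3), circles, squares and triangles for numbers 1, 2 and 3, and open symbols for the 2 oil libraries whose reporter goes against the label. The Tom+ CCl4 libraries of Tfr2, at 486 to 514 CPM, were below the Tom- CCl4 libraries, at 607 to 745 CPM.

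Between Tom+ and Tom- of oil mice 0 of the 10 genes were called, beside 0% of all genes, while 1198 of 17121 genes had an unadjusted p under 0.05 in edgeR. DESeq2 also called 0 of the 10 there. Hamp was lower in Tom+ in 3 of 3 oil pairs (log2 fold change -1.51, SE 0.43, adjusted p = 0.528). By the reporter, only pair 3 in oil sets a high Tom+ library against a low Tom- library. Its Hamp was 49.7 CPM in Tom+ and 61.3 CPM in Tom-. Without Tom- oil 3 the log2 fold change of Hamp was -1.91 with an adjusted p of 0.00148. That library had the lowest Hamp of its group, so this value follows from which library was left out and is no support. Without both oil libraries of doubtful label the value was -1.19 with an adjusted p of 0.748. In CCl4 mice Hamp was also lower in Tom+ in 3 of 3 pairs, by a smaller log2 value of -0.35 (SE 0.42, adjusted p = 0.670). The fractions did not overlap for 2 of 10 genes in CCl4, Bmp6 and Tfr2 (28.7% of all genes), and for 1 of 10 in oil, Smad7 (11.7% of all genes), which was higher in Tom+ by 0.30 (SE 0.16, adjusted p = 0.753), or 0.28 (0.907) without both libraries of doubtful label.

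The rest of the pathway was read from lists of named genes. Of 12 further BMP ligands and antagonists, 8 were tested. Gdf2 (BMP9) rose after CCl4 in Tom- by 3.23 (SE 0.55, adjusted p = 0.00275) and in Tom+ by 1.81 (SE 0.50, adjusted p = 0.0395), and Bmp5 rose in Tom- by 3.21 (SE 0.49, adjusted p = 0.00125). Both were low, with Gdf2 at 0.267 to 1.47 CPM in oil and 1.53 to 4.20 CPM after CCl4, and Bmp5 at most at 1.96 CPM. Without both oil libraries of doubtful label Gdf2 and Bmp5 remained called in Tom- (3.24 and 3.18, adjusted p = 0.00660 and 0.00883), and Gdf2 was not in Tom+ (1.399, adjusted p = 0.124), where Bmp7 was called in its place (1.18, adjusted p = 0.0444, against 0.98 and 0.0552 with all libraries). Gdf2 is known as a product of stellate cells, and the summed level of 8 stellate cell markers moved with it, from 7.62 to 24.4 CPM in oil to 49.99 to 98.4 CPM after CCl4. Its part in the result was not tested. Bmper, a secreted modulator that binds BMPs, was lower in Tom+ than in Tom- of CCl4 mice (-1.23, SE 0.19, adjusted p = 0.00519), with 3.30 to 5.24 CPM against 9.86 to 10.5 CPM, and its interaction was called (-1.30, adjusted p = 0.0329), though not without both oil libraries of doubtful label (-1.29, adjusted p = 0.0914).

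All 14 BMP receptors, co-receptors and SMADs were tested, and 0 were called in any of the comparisons. By the adjusted p alone, 2 were higher after CCl4 in Tom+. With the library number as a block in the fit, 1 was called higher there, beside 3.77% of all genes. Tmprss6, the protease that cleaves hemojuvelin, had a log2 change after CCl4 of 0.17 in Tom- and 0.06 in Tom+, and hemojuvelin itself (Hjv, matched by its older symbol Hfe2) of -0.09 and -0.28. Without both oil libraries of doubtful label these values were 0.15 and 0.14 for Tmprss6 and -0.03 and -0.17 for Hjv. Of the 6 other BMP-SMAD targets, 4 were tested. Id4 rose after CCl4, with 1.84 in Tom- (adjusted p = 0.00644) and 1.74 in Tom+ (0.0119), from 0.191 to 0.514 CPM in oil to 0.960 to 1.79 CPM, and it remained called without both oil libraries of doubtful label (1.75 and 1.42, adjusted p = 0.0175 and 0.0481). Id3 rose in Tom- by 2.58 (SE 0.48, adjusted p = 0.00768), from 3.68 to 7.70 CPM to 24.9 to 53.3 CPM, and remained called without those libraries (2.81, adjusted p = 0.0325). Bambi, a decoy receptor, rose in Tom+ by 1.17 (adjusted p = 0.0245), and was not called without them (1.09, adjusted p = 0.107). Id3 was not called in Tom+, but over both fractions it was at 3.68 to 12.9 CPM in oil and 18.9 to 53.3 CPM after CCl4. The stellate cell markers rose in Tom- (7 of 8) and in Tom+ (5 of 8). The endothelial markers rose in Tom- (8 of 8) and not in Tom+ (0 of 8). The part of these markers in the results was not tested.

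Of 19 iron transport and storage genes, 18 were tested and 0 were called in any comparison. By the adjusted p alone, 1 was higher and 3 were lower after CCl4 in Tom-, and 3 were higher and 2 lower in Tom+. The share of all genes past that threshold is not given. Trf, which encodes the plasma iron carrier transferrin, was past the p threshold and short of the fold threshold in Tom- (log2 change after CCl4 0.47, adjusted p = 0.0276) and had 0.20 in Tom+ (adjusted p = 0.380). Cp, the ferroxidase ceruloplasmin, had 0.44 in Tom- and 0.35 in Tom+ (adjusted p = 0.0626 and 0.163). The values without both oil libraries of doubtful label were 0.40 and 0.26 for Trf and 0.32 and 0.39 for Cp, none past the p threshold. Of 8 genes of heme and hemoglobin clearance, Hpx, the heme scavenger hemopexin, was the 1 gene called. It was lower in Tom+ than in Tom- of CCl4 mice (-0.84, SE 0.19, adjusted p = 0.0258) and lower after CCl4 in Tom+ (-0.89, SE 0.19, adjusted p = 0.0120), at 3125 to 4682 CPM against 6061 to 8799 CPM in Tom+ oil, and that call held without both oil libraries of doubtful label (-0.93, adjusted p = 0.0405).

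Of 11 genes of the IL-6 and STAT3 input, 10 were tested, and called genes went both ways in Tom-. Socs3, a STAT3 target and inhibitor, rose after CCl4 by 1.69 (SE 0.46, adjusted p = 0.0331), from 4.22 to 4.67 CPM to 7.51 to 24.9 CPM. The acute phase genes Saa1 and Saa2 fell after CCl4, Saa1 with a log2 fold change of -3.05 (adjusted p = 0.00745) and Saa2 with -3.55 (0.0183), with Saa1 at 549 to 1975 CPM in Tom- oil and 92.2 to 238 CPM in Tom- CCl4. Without both oil libraries of doubtful label Saa1 remained called (-2.69, adjusted p = 0.0352), while Socs3 (1.67, 0.130) and Saa2 (-3.13, 0.0656) were not. In Tom+ none of these 10 genes was called, but the levels moved the same way there. Over both fractions Socs3 was at 4.22 to 5.46 CPM in oil and 7.51 to 24.9 CPM after CCl4. Saa1 was at 296 to 1975 CPM in oil and 70.0 to 238 CPM after CCl4. The treatments overlapped for Saa2, at 82.5 to 1162 CPM in oil and 22.1 to 97.2 CPM after CCl4. Saa1 and Saa2 were lower and Socs3 was higher after CCl4 in the same Tom- hepatocytes in which Hamp2 rose. The Hamp2 rise was not called without both oil libraries of doubtful label (2.34, adjusted p = 0.0865). The part of the IL-6 input in the hepcidin results was not tested.

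The genes whose log2 CPM followed Hamp most closely over the 12 libraries were, among 13060 compared, Rara (r = 0.960), Cyp26a1 (r = 0.932), Phf23 (r = 0.929), Timm44 (r = 0.919) and Jag1 (r = 0.908). Same-numbered Tom+ and Tom- libraries deviate together and are not independent, and the groups differ in Hamp, so these values are a description only. As deviations from group means the same 5 correlations were 0.889, 0.754, 0.847, 0.754 and 0.733. Rara encodes a retinoic acid receptor, Cyp26a1 the enzyme that breaks down retinoic acid, and Jag1 a Notch ligand. Cyp26a1 stood at 77.6, 91.4 and 36.2 CPM in Tom- oil and at 23.2, 36.8 and 31.5 CPM in Tom+ oil, and at 74.3 to 115 CPM in the 6 CCl4 libraries. As for Hamp, Tom- oil 1 and 2 were the high libraries of the oil mice.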

How the data were processed

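Hepatocytes of p16-Tom mice were sorted into Tom+ and Tom- cells, and poly-A enriched, strand-specific libraries were sequenced. According to the submitters' processing notes, the authors used fastp 0.23.2, HISAT2 2.1.0, DESeq2 1.42.1 and the mm10 build; the counting program, its strand setting and the annotation were not given in the sources used here. The deposited table holds the authors' expected counts per gene, of which 30.4% to 32.9% of the non-zero values per library were not whole, and they were rounded before testing (whole counts had been assumed when the tests were chosen). No column was left unused.

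The 10 genes and all gene lists were chosen with earlier results of these data known. Named genes are the 10, the called genes of the lists with the largest log2 fold changes, and the 5 genes most like Hamp by Pearson's r of log2 CPM (among genes whose mean reached 1 CPM). For lists with no called gene, those of highest mean CPM were named. Bmp2, Bmp7 and Igfbp2 were named in addition. Groups follow the labels. The tests were fitted on all 12 libraries (edgeR 4.0.16, R 4.3.3, TMM scaling, filterByExpr, robust quasi-likelihood test, Benjamini-Hochberg adjustment over all 17121 genes tested). CPM are counts per library total, TMM-scaled, and TPM were computed from the gene lengths in the table. For the summed comparison the counts of the Tom+ and Tom- library of the same number were added (17743 genes tested). The procedure was tested on simulated counts.

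The labels do not say that libraries of a group come from separate animals, so p-values measure the spread between these samples. Tom+ and Tom- libraries of the same number deviated together from their group means (r = 0.619, 0.493 and 0.693 in CCl4 and 0.477, 0.570 and 0.372 in oil, over 9662 genes whose mean reached 5 CPM), and the numbers were taken as pairs; this comes from the data, not the labels. Alternatives were the pair as a block, DESeq2 1.42.0, its size factors, no filter, at least 10 counts in every library, the 6 libraries of a comparison alone, both hepcidin genes summed, and leaving out libraries. TPM in place of CPM was tried for the ratio of mean levels only.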

Additional observations from a re-analysis of the deposited data

Results flagged for a closer look

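The Tom+ to Tom- difference of Bmp6 differed between CCl4 and oil mice when the pair of same-numbered libraries was a block in the edgeR fit, with an interaction of -1.111 on the log2 scale (adjusted p = 0.0267). Without the block the interaction was -1.08 (adjusted p = 0.105), without both oil libraries whose reporter goes against the label it was -1.19 (SE 0.38, adjusted p = 0.194) and not called, and in DESeq2 it was -1.07 (adjusted p = 0.0419). Bmp6 was lower in Tom+ in 3 of 3 CCl4 pairs. The summed sinusoidal endothelial markers, at 323 to 343 CPM in Tom- CCl4 and 161 to 225 CPM in Tom+ CCl4, moved with it, and their part was not tested.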

How the results depend on the processing

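Over 60 results and 1110 values under alternatives, 1069 kept their direction and 1025 also their side of the threshold. Of the 10 genes, the number called between Tom+ and Tom- in CCl4 was 1, and 2 by the adjusted p alone (0 to 1 with a library left out). In oil it was 0, and 0 to 1 with a library left out. For CCl4 against oil in Tom- it was 3, and 1 without both oil libraries of doubtful label (1 to 3 with 1 library left out), and 2 in the 6 libraries alone, where Hamp2 was lost (adjusted p = 0.0955, beside 6.19% of all genes called higher). In Tom+ it was 3, and 1 without both of those libraries, 1 with no filter (beside 1.61%), 1 to 4 with 1 library left out, and 4, with Id1 added, in DESeq2 (beside 3.44%) and in the 6 libraries alone (beside 2.46%). For the interaction it was 0, and 1 with the pair as a block, 1 in DESeq2 (beside 3.85% of all genes) and 0 to 1 with a library left out. With both fractions summed it was 2, and 4 in DESeq2 (beside 4.52%), 1 with no filter (beside 2.52%), 1 without both libraries of doubtful label, 1 with Hamp and Hamp2 summed, and 1 to 3 with a number left out. Leaving out both libraries of doubtful label leaves single libraries behind numbers 1 and 2 of the oil sums. The share of all genes called is not given for fits with 1 library or number left out, with Hamp and Hamp2 summed, or by the adjusted p alone. Counts from these fits show how far the calls moved and are not results about the 10 genes. The cause of these changes was not tested.

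Between CCl4 and oil, same-numbered libraries correlated less (r = 0.063, 0.106 and 0.019 in Tom-, and 0.205, 0.026 and 0.309 in Tom+), with 2 of 3 best with their own number in each fraction. The labels give them only a number in common, and whether they share more was not tested. With the number as a replicate block, 5 of the 10 genes were called in Tom+, Id1 (1.38, adjusted p = 0.0105) and Smad6 (0.79, 0.0260) in addition, beside 3.77% of all genes called higher in that fit. With fractions summed the block gave 3, Id1 (1.17, 0.0251) in addition, beside 4.65%. Beside Bmp6 in the interaction, the block changed no other call between Tom+ and Tom-.

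The reversed values belong to results that were not called. Without both libraries of doubtful label they were 0.06428 for Bmp6 and 0.1681 for Id1 (Tom+ against Tom- in oil), 0.001161 for Atoh8 (CCl4 in Tom-), 0.1066 for Tfrc (CCl4 in Tom+), -0.03093 for Id1 (interaction) and 0.0109 for Tfr2 (summed), and with at least 10 counts in every library 0.0004417 for Hfe (CCl4 in Tom-) and 0.003182 for Atoh8 (summed). With 1 library left out, the log2 values that changed sign ranged as follows. Between Tom+ and Tom- in CCl4, Atoh8 ranged from -0.2552 to 0.00163, Hfe from -0.1437 to 0.01399, Id1 from -0.2527 to 0.892 and Smad7 from -0.2461 to 0.04533. In oil, Bmp6 ranged from -0.2714 to 0.1421, Id1 from -0.4969 to 0.003232 and Tfr2 from -0.1436 to 0.01869. For CCl4, Hfe ranged from -0.08439 to 0.0734 in Tom- and from -0.02677 to 0.1662 in Tom+, and Tfrc from -0.3249 to 0.1013 in Tom+. For the interaction, Hamp2 ranged from -0.3192 to 0.5698, Hfe from -0.01716 to 0.1886 and Smad6 from -0.004217 to 0.58. With fractions summed, Atoh8 ranged from -0.1188 to 0.09765, Hfe from -0.05744 to 0.08468, Tfr2 from -0.0923 to 0.04682 and Tfrc from -0.07485 to 0.2247.

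Depth limits Smad6, with 66 to 474 counts per library, and Bmp6, with 78 to 204, and the division of reads between Hamp and Hamp2 limits Hamp2.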
